A study of Mus musculus with 9 samples.

Results

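Notch signalling was followed across the epithelial boundary of the mouse stomach through 8 genes: the receptors Notch1, Notch2 and Notch3, the ligands Jag1, Jag2 and Dll1, and the target genes Hes1 and Hey1. The genes were chosen by name. Every probe set of the expression table whose only gene symbol was one of these 8 was taken, which gave 14 probe sets out of 34945 with 1 gene symbol, for 8 of 18193 genes. All 14 probe sets passed the filter on low signal, and all 8 genes were among the 13637 genes tested.

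Tissue came from 9 untreated, healthy female C57Bl/6 mice aged 3 months, and 3 neighbouring stripes, each 600 to 800 µm wide, were cut from every stomach. The stripes were the squamocolumnar junction (SCJ, called the junction here), where the squamous lining meets the glandular lining, the keratinised forestomach (FS), and the acid-secreting corpus (CO). Stripes of 3 mice were pooled before RNA extraction, so each zone had 3 arrays (series 1, 2 and 3) and each series came from its own mice. All groups share strain, sex, age and treatment, and differ only in the zone.

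Notch receptors are single-pass membrane proteins that are cut when a neighbouring cell presents a Jagged or Delta ligand. The freed intracellular part enters the nucleus, binds the DNA-binding protein RBPJ with a Mastermind coactivator, and switches on repressors of the Hes and Hey families. In mouse stratified epithelia Notch is known for moving keratinocytes from the basal layer into differentiation, and in the mouse glandular stomach for keeping progenitor cells dividing.

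Values are array signals, scaled by the authors to a common trimmed mean of 200 on each array, with a median signal of 47.9 to 57.1. Signals of different probe sets cannot be compared with each other as amounts of RNA, so each gene is followed across zones only. Where a gene had several probe sets past the filter, the brightest on average (log2 scale) stood for it. Differences are on the log2(signal + 9.8) scale from 1 limma fit to all 9 arrays, with a standard error (SE) and a p-value adjusted by Benjamini-Hochberg over all 13637 genes. A gene was called when its adjusted p was under 0.05. Arrays of the same zone correlated at 0.975 or above over all probe sets and arrays of different zones at 0.922 or below. The labels name the tissue epithelium, but the stripes also held other layers: 8 smooth muscle genes summed to a signal of 24423 to 29069 at the junction, 56605 to 61974 in forestomach and 21407 to 31185 in corpus.

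In forestomach, 6 of the 8 genes were higher than in corpus: all 3 receptors and all 3 ligands. Hes1 was lower and Hey1 was not called. At the junction, the 3 receptors, Jag1 and Jag2 were higher than in corpus, and Notch2, Notch3 and Dll1 were lower than in forestomach, while Hes1 was higher than in forestomach. These zones differ over much of the transcriptome, so each count has to be read against its background: 59.9% of all genes tested were called between forestomach and corpus, 30.0% as higher and 29.9% as lower. The members' median difference there was 1.18 on the log2 scale, against -0.01 over all genes. Between junction and corpus, 5 members were called higher and 0 lower (0 of 8 also at an unadjusted p under 0.05 in limma), where 25.0% of all genes were called, 13.2% higher and 11.8% lower. The members' median was 0.84, against -0.05 over all genes. Between junction and forestomach, 1 member was called higher and 3 lower, where 44.6% of all genes were called, 21.5% higher and 23.1% lower, and the members' median was -0.29, against -0.04. In bulk tissue, fewer cells of a type and less RNA per cell cannot be told apart, which holds for every difference given here.

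**Figure D1:**
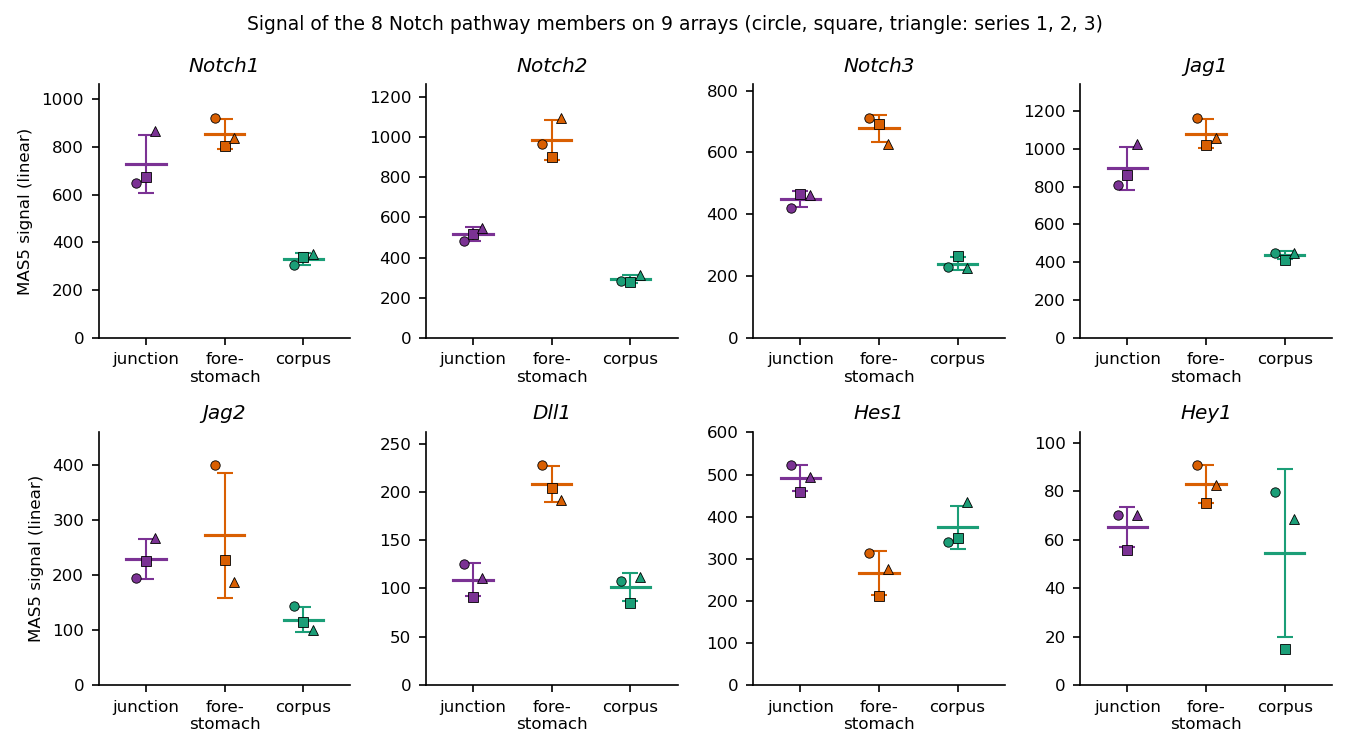
Array signal (vertical axis, linear, from 0) of each of the 8 genes at the junction, in forestomach and in corpus; each symbol is 1 array, its shape marks the series, and the bar and whiskers are the mean and SD of 3 arrays. Notch1, Notch2, Notch3, Jag1 and Dll1 have all 3 forestomach arrays above all 3 corpus arrays, the 3 junction arrays of Hes1 lie at 459.3 to 523.2, above the other 6, and 1 corpus array of Hey1 lies at 14.8.

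Notch1, the receptor best known for driving differentiation in mouse skin, had signals of 647.5, 673.7 and 867.2 at the junction, 924.2, 803.8 and 838.5 in forestomach, and 304.1, 340.8 and 349.9 in corpus (series 1, 2 and 3 in that order, as throughout). Junction and forestomach arrays overlapped, and both lay above every corpus array. The mean was 729 ± 120 at the junction, 856 ± 62.0 in forestomach and 332 ± 24.2 in corpus (SD, n = 3 each). Forestomach was 2.53-fold above corpus (log2 1.34 ± 0.13 SE, adjusted p = 2.83e-05) and the junction 2.15-fold (1.11 ± 0.13, adjusted p = 4.59e-04). The junction was not called against forestomach: its difference was -0.24, with a 95% interval of -0.53 to 0.06 (adjusted p = 0.168). Without the third junction array, the highest of the 3, that difference was -0.37 and was called (adjusted p = 0.0322).

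Notch2, a receptor often expressed beside Notch1, showed 3 separate levels. It had signals of 484.2, 517.2 and 549.9 at the junction, 964.2, 902.3 and 1098.3 in forestomach, and 284.6, 279.6 and 313.2 in corpus. No array of 1 zone reached into another, and the order was forestomach, junction, corpus. Forestomach was 3.29-fold above corpus (log2 1.72 ± 0.10, adjusted p = 1.69e-06), the largest fold of the 8 genes in that comparison, and ranked 1550 by absolute log2 difference among the 13637 genes. The junction was 1.74-fold above corpus (0.80 ± 0.10, adjusted p = 8.67e-04) and 1.89-fold below forestomach (-0.92 ± 0.10, adjusted p = 1.74e-04).

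Notch3, a receptor known from suprabasal keratinocytes and from the mural cells of blood vessels, gave the same order. Its signals were 419.3, 465.9 and 463.5 at the junction, 712.8, 692.7 and 627.6 in forestomach, and 227.5, 264.8 and 227.0 in corpus, again with no overlap between any pair of zones. Forestomach was 2.76-fold above corpus (log2 1.46 ± 0.10, adjusted p = 3.59e-06). The junction was 1.84-fold above corpus (0.88 ± 0.10, adjusted p = 4.00e-04) and its log2 difference from forestomach was -0.58 ± 0.10 (adjusted p = 0.00173). Notch1, Notch3 and Dll1 kept every call they had under all alternatives tried, each scored on the brightest or the averaged probe sets. Tested alone, the second Notch1 probe set was not called for junction over corpus (0.40, adjusted p = 0.115 in limma).

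The mural cell list, 7 genes of pericytes and vascular smooth muscle, summed to 5939 to 6481 at the junction, 9976 to 11341 in forestomach and 6132 to 6435 in corpus. In forestomach 5 of the 7 mural genes and 8 of the 8 smooth muscle genes were called higher than in corpus, beside 30.0% of all genes. Their part in the receptor differences there was not tested. Between junction and corpus 0 of 7 mural genes and 0 of 8 smooth muscle genes were called in either direction by limma (0 and 1 at an unadjusted p under 0.05). Of all genes 25.0% were called there, 13.2% higher and 11.8% lower. In the same comparison 10 of 10 suprabasal keratinocyte genes and 6 of 8 basal keratinocyte genes were called higher at the junction, and 1 basal gene lower. Called higher there too were 3 of 6 leukocyte genes (Ptprc, Cd68 and Csf1r) and 2 of 8 fibroblast genes (Col1a2 and Dcn). The part of any of these cell types in the receptor levels at the junction was not tested.

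The start regions of the receptors are shown because all 3 were called in the same direction, with Jag1 and the Notch target Nrarp beside them. Each is the RefSeq window of GRCm38.p6 from 250 bases before to 50 bases after the start of the gene, written 5′ to 3′ on the gene's own strand, with capitals marking the GC box (GGGCGG, or CCGCCC on the other strand), the letters bound by Sp family factors. The windows are chr2:26503773-26504072 (minus strand) for Notch1, chr3:98013288-98013587 (plus strand) for Notch2, chr17:32166841-32167140 (minus strand) for Notch3, chr2:137116471-137116770 (minus strand) for Jag1 and chr2:25180508-25180807 (plus strand) for Nrarp.
Notch1: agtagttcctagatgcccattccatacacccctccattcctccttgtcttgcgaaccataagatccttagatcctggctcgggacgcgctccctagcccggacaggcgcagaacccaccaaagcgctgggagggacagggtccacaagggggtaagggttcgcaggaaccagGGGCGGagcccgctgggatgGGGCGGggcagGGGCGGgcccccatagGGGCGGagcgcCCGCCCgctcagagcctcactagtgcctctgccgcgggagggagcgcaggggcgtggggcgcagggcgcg
Notch2: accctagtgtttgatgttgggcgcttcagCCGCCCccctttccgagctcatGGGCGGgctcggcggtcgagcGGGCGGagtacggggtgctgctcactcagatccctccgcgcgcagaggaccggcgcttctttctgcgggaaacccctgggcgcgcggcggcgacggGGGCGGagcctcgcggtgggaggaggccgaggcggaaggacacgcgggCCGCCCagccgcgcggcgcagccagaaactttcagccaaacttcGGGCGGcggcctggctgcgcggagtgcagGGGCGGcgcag
Notch3: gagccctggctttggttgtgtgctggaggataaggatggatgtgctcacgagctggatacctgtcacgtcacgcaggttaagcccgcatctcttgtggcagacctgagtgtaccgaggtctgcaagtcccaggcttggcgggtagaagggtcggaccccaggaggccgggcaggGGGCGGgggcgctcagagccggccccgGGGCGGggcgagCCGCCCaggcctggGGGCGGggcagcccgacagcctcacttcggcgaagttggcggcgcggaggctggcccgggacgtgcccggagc
Jag1: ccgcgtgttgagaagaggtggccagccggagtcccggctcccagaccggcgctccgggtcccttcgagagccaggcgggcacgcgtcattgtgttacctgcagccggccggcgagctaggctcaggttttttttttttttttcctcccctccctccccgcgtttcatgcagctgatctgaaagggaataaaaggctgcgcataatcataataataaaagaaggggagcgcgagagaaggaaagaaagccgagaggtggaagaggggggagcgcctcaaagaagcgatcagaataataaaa
Nrarp: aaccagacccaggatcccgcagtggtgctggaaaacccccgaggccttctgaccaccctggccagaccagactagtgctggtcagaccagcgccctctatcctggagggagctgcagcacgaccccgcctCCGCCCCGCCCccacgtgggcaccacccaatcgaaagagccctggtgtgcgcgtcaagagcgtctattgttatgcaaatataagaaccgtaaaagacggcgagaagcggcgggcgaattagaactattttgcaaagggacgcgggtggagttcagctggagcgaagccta
The window of Notch1 held 5 GC boxes, that of Notch2 7, that of Notch3 4, that of Jag1 0 and that of Nrarp 2, which overlap each other. Of the 6 members in the RefSeq table (Hes1 and Hey1 are not among them), 4 had a GC box in a window, or 66.7%. Counted by gene in the same way, the share was 75.6% of 41 other pathway genes. Counted by single windows, it was 59.0% among windows of all genes tested and 35.7% among all windows of the table. The RBPJ core TGGGAA, read on both strands, was found in the windows of 0 of 6 members and of 34.1% of the 41 other pathway genes. By single windows it was found in 23.4% of those of genes tested and in 25.6% of all 32851. It does not overlap the GC box. These counts describe the letters of the windows only.

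Jag1, the ligand most often paired with these receptors in epithelia, had signals of 806.8, 861.3 and 1025.2 at the junction, 1166.6, 1020.9 and 1056.2 in forestomach, and 450.7, 414.4 and 449.2 in corpus. The corpus arrays lay apart from the rest, and 1 junction array reached into the forestomach range. Forestomach was 2.43-fold above corpus (log2 1.28 ± 0.11, adjusted p = 1.51e-05) and the junction 2.02-fold (1.01 ± 0.11, adjusted p = 3.29e-04). The junction was lower than forestomach in 3 of 3 series, but the difference of -0.27 (95% interval -0.52 to -0.02) was not called (adjusted p = 0.0785). It was called without the third junction array (-0.37, adjusted p = 0.0254).

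Jag2, a ligand expressed in stratified epithelia, varied most among the forestomach arrays. Its signals were 194.8, 224.8 and 266.4 at the junction, 400.3, 228.0 and 187.3 in forestomach, and 143.6, 113.8 and 99.1 in corpus. The forestomach arrays spanned the whole range of the junction arrays, and all 6 lay above corpus. Forestomach was 2.10-fold above corpus (log2 1.07 ± 0.26, adjusted p = 0.00708), and the junction 1.86-fold (0.89 ± 0.26, adjusted p = 0.0384). The junction differed from forestomach by -0.18 (95% interval -0.78 to 0.42, adjusted p = 0.615). The junction call was lost with the series as a block (adjusted p = 0.0512), and also without junction array 2 (0.0912) or 3 (0.120), forestomach array 2 (0.0510), corpus array 1 (0.0503), 2 (0.0928) or 3 (0.109), or series 2 (0.214) or 3 (0.201). It was lost too with no filter on low signal (0.0616). The forestomach call was lost without series 2 (adjusted p = 0.0605).

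Dll1, a Delta ligand that in the mouse gut marks early secretory cells, followed another order. It had signals of 125.1, 91.2 and 111.1 at the junction, 228.1, 204.3 and 191.6 in forestomach, and 107.9, 84.8 and 111.9 in corpus. The forestomach arrays lay above all others, and the junction and corpus arrays overlapped. Forestomach was 1.96-fold above corpus (log2 0.97 ± 0.14, adjusted p = 4.07e-04), and the junction was 1.84-fold below forestomach (-0.88 ± 0.14, adjusted p = 0.00127). Junction and corpus differed by 0.09 (95% interval -0.23 to 0.42, adjusted p = 0.673).

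Hes1, the repressor that Notch switches on in most tissues, was the 1 member with its highest signals at the junction. It had signals of 523.2, 459.3 and 493.2 there, 312.9, 210.4 and 274.8 in forestomach, and 340.9, 349.9 and 433.9 in corpus. The 3 zones did not overlap, and the order was junction, corpus, forestomach. The junction was 1.84-fold above forestomach (log2 0.88 ± 0.16, adjusted p = 0.00199). Forestomach was 1.4-fold below corpus (-0.49 ± 0.16, adjusted p = 0.0236). The junction differed from corpus by 0.39 (95% interval 0.03 to 0.74), which was not called (adjusted p = 0.103).

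The Hes1 call in forestomach against corpus rested on single arrays and on the scaling. It was lost with each array centred on its median (-0.38, adjusted p = 0.0907), a scaling that moved the median of all genes by 0.11 in this comparison. It was lost without forestomach array 2, the lowest Hes1 signal (-0.34, adjusted p = 0.0681), without corpus array 3, the highest corpus signal (-0.38, adjusted p = 0.0811), without series 2 (-0.38, adjusted p = 0.100) and without series 3 (-0.41, adjusted p = 0.150). Forestomach arrays 2 and 3 carried more glandular RNA than array 1: the glandular list, 12 genes of the gastric glands and surface, stood at a median of 4.03% and 5.20% of its corpus level there, against 0.453% on array 1. Without both, only array 1 was left in forestomach, the one with the highest Hes1 signal there (312.9, against 210.4 and 274.8). With that array alone, the Hes1 difference from corpus was -0.25, and that of junction over forestomach was 0.63. The part of glandular RNA in the Hes1 difference was not tested.

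The filter level ran from 29.0 to 36.5 over the arrays. Hey1, a Notch target of endothelium among other tissues, lay above it on every array but corpus array 2. It had signals of 70.0, 55.9 and 70.1 at the junction, 90.9, 75.1 and 82.6 in forestomach, and 79.6, 14.8 and 68.7 in corpus. The forestomach arrays lay above the junction arrays, and the corpus arrays spread across both because 1 of them was at 14.8. Hey1 was called in no comparison in limma: the difference was 0.73 for forestomach over corpus (95% interval -0.22 to 1.69, adjusted p = 0.162), 0.43 for junction over corpus (-0.53 to 1.38, adjusted p = 0.498) and -0.31 for junction over forestomach (-1.26 to 0.65, adjusted p = 0.588). Without corpus array 2 the first of these was 0.14 (adjusted p = 0.406), the second was -0.16 (adjusted p = 0.438) and the third was -0.31 (adjusted p = 0.0776). Summed signals of 10 endothelial genes were 1714 to 1991 at the junction, 1661 to 1764 in forestomach and 1816 to 2213 in corpus.

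**Figure D2:**
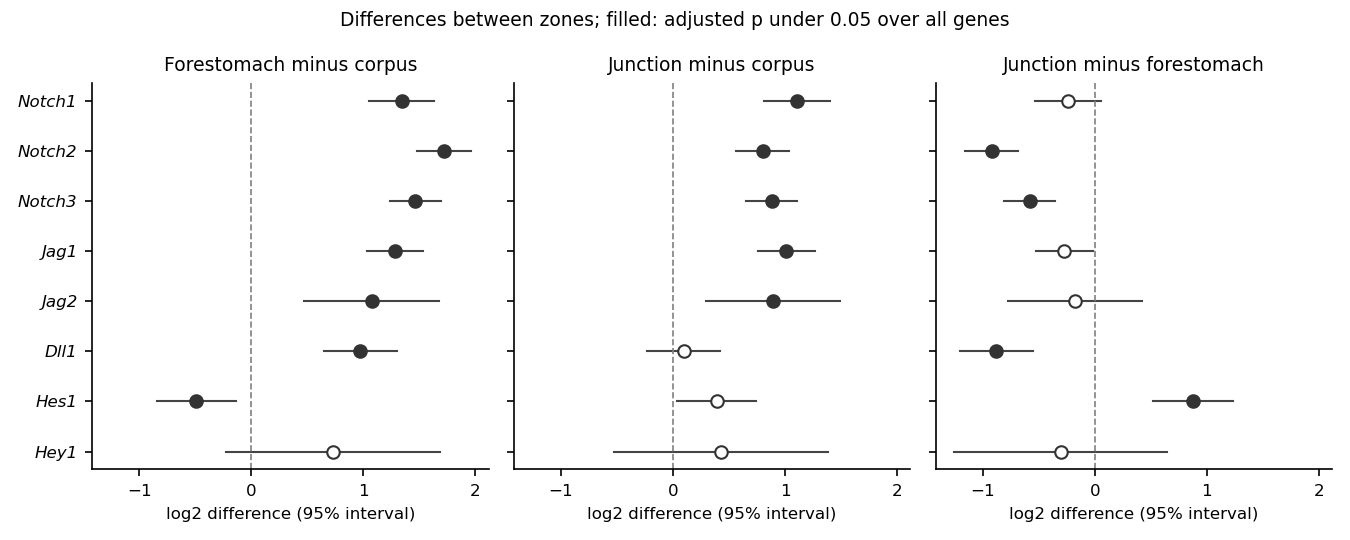
Log2 difference (horizontal axis) with its 95% interval for each of the 8 genes, in 1 panel for each pair of zones; filled points have an adjusted p under 0.05. Receptors and ligands lie right of 0 for forestomach over corpus, from 0.97 for Dll1 to 1.72 for Notch2, and Hes1 lies left of 0 at -0.49 there and right of 0 at 0.88 for junction over forestomach.

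Groups of arrays that do not overlap were common in these data. Forestomach and corpus arrays did not overlap for 7 of the 8 members, where 66.4% of all genes showed no overlap. Junction and corpus arrays did not overlap for 6 members, against 43.8% of all genes. Junction and forestomach arrays did not overlap for 5 members, against 55.8% of all genes. Hey1 was the 1 member whose arrays did not overlap between junction and forestomach while its difference was not called.

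The junction stripe lies across the border of both linings. For each series, the junction signal was placed on the way from the corpus signal, at 0%, to the forestomach signal, at 100%. Over the 4085 genes called higher in forestomach than in corpus, the median gene stood at 23.6%, 34.5% and 34.8% in series 1, 2 and 3. Notch2 stood at 29.4%, 38.2% and 30.1%, near that median. Notch3 stood at 39.5%, 47.0% and 59.0%, Jag1 at 49.7%, 73.7% and 94.9%, and Notch1 at 55.4%, 71.9% and 106%. On these brightest probe sets, each was above the median in 3 of 3 series. That did not hold for the second probe sets of Notch1 and Notch3. In series 2 the second Notch1 probe set was lower at the junction (192.9) than in corpus (212.6). In series 1 the second Notch3 probe set was at 74.1 at the junction, 56.2 in corpus and 279.5 in forestomach. Dll1 stood at 14.3%, 5.36% and -1.0%, below it in 3 of 3. Jag2 ran from 19.9% to 190% and took no stable place. These positions are a description, and differences between genes in position were not tested.

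A gene with its own peak or trough at the junction has to differ from both neighbouring zones in the same direction. This test called 27 of all genes as above both, 0.198% of those tested, and 2 below both, 0.0147%. The total of 29, or 0.213%, became 12 with the series as a block. Of the 8 members 0 were called in limma, and 1 had an unadjusted p under 0.05. That gene was Hes1 (unadjusted p = 0.0352, adjusted p = 0.826), whose adjusted p stayed between 0.508 and 1 over the alternatives. Its 3 junction arrays lay above all 6 others, as did those of 389 genes in all, or 2.85%.

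Of the 8 genes, 5 had more than 1 probe set, and the additional probe sets were dimmer. The second Notch3 probe set gave the same direction, with signals of 74.1, 150.2 and 183.7 at the junction, 279.5, 258.4 and 219.9 in forestomach, and 56.2, 50.7 and 37.1 in corpus. Its differences, fitted over all 29511 kept probe sets, were 2.19 for forestomach over corpus (adjusted p = 2.51e-04), 1.26 for junction over corpus (adjusted p = 0.0175) and -0.93 for junction over forestomach (adjusted p = 0.0332). Among kept probe sets 52.8% were called between forestomach and corpus, 19.1% between junction and corpus and 37.4% between junction and forestomach.

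The second Jag2 probe set put the junction below forestomach with no overlap, at 158.2, 127.0 and 188.7 against 272.8, 252.8 and 269.2, with 74.2, 133.9 and 107.2 in corpus. That difference was -0.73 (adjusted p = 0.0222), where the brighter Jag2 probe set was not called. Its forestomach over corpus difference was 1.29 (adjusted p = 7.72e-04), while junction over corpus was not called (0.56, adjusted p = 0.0885). The second Notch1 probe set was called for forestomach over corpus only, at 0.62 (adjusted p = 0.0105), with 0.40 for junction over corpus (adjusted p = 0.115).

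For Notch2 and Jag1 the dim probe sets did not follow the bright one. The second Notch2 probe set passed the filter level on 3 of 9 arrays, ran from 1.3 to 64.2 without order among zones, and was called in no comparison (adjusted p 0.321 to 0.871). A Jag1 probe set at 63.6, 56.2 and 43.2 at the junction, 23.3, 55.9 and 41.3 in forestomach, and 117.9, 84.3 and 55.9 in corpus was called in the opposite direction, with forestomach below corpus (-0.94, adjusted p = 0.0263). The third Jag1 probe set lay between 30.1 and 56.9 on all arrays and was called in no comparison. When all kept probe sets of a gene were averaged, Jag1 was called neither in forestomach (0.19, adjusted p = 0.256) nor at the junction (0.23, adjusted p = 0.262) over corpus, and Notch2 was called in forestomach (0.93) but not at the junction (0.03, adjusted p = 0.948). Of the 3 Jag1 probe sets, only the brightest was called higher in forestomach or at the junction than in corpus.

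**Figure D3:**
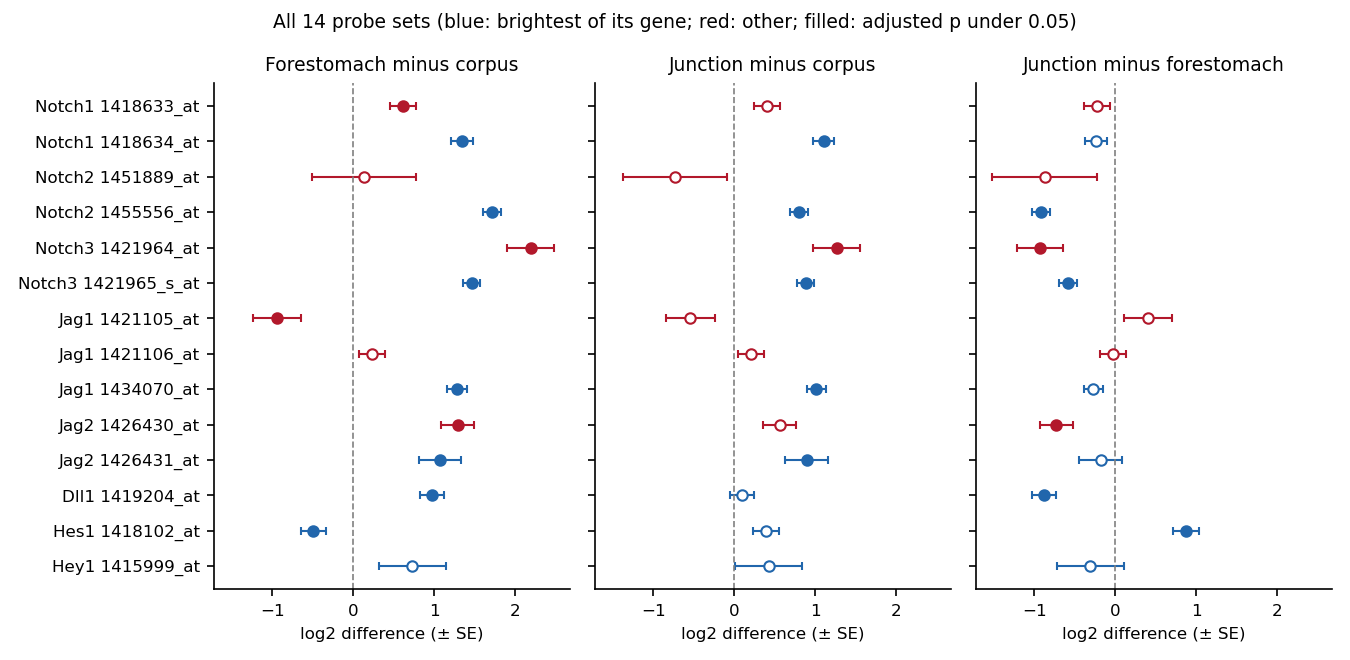
Log2 difference (horizontal axis) with its SE for all 14 probe sets, in 1 panel for each pair of zones; blue marks the brightest probe set of a gene, red the others, and filled points have an adjusted p under 0.05 over 29511 probe sets. The red points of Notch3 and Jag2 lie on the side of the blue ones, and 1 red point of Jag1 lies opposite, at -0.94 for forestomach over corpus.

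Beyond the members, 54 further genes of the pathway were listed, of which 49 had a probe set analysed here and 43 were tested. In forestomach 14 of the 43 were called higher than in corpus and 10 lower, with a median difference of 0.12. Of all genes tested, 30.0% were called higher and 29.9% lower there. At the junction 5 were called higher than in corpus and 5 lower (3 lower with the series as a block), with a median of -0.02. The shares of all genes were 13.2% and 11.8%. Against forestomach 11 were called higher at the junction and 10 lower, with a median of -0.14, beside 21.5% and 23.1% of all genes. The list as a whole thus took no common direction, and its named members are those with the largest called difference of each functional group.

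Nrarp, the Notch-regulated ankyrin repeat protein that Notch induces and that damps Notch in turn, had the largest difference of all these genes. It had signals of 1016.7, 1097.6 and 1409 at the junction, 2245.6, 2009.6 and 1804.1 in forestomach, and 186, 120.7 and 159.4 in corpus. The zones did not overlap, and the order was that of Notch2 and Notch3. Forestomach was 12.4-fold above corpus (log2 3.63 ± 0.18, adjusted p = 5.36e-07) and the junction 7.20-fold (2.85 ± 0.18, adjusted p = 9.89e-06). The junction lay below forestomach (-0.79 ± 0.18, adjusted p = 0.00719), a call lost without series 1 (adjusted p = 0.0666). The second Nrarp probe set gave 3.19, 2.02 and -1.17 for the same comparisons, all called.

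Hes6 was lower in forestomach than in corpus, opposite to Nrarp. Hes7 was lower there too, but it passed the filter through its corpus arrays. Hes6, a relative that counteracts Hes1 in mouse neural cells, averaged 275 ± 11.8 at the junction, 89.9 ± 19.4 in forestomach and 295 ± 13.4 in corpus (SD, n = 3 each). It was 3.09-fold below corpus in forestomach (log2 -1.63, adjusted p = 1.15e-05) and 2.89-fold above forestomach at the junction (1.53, adjusted p = 4.40e-05). Hes7, the segmentation clock repressor, was dim, at 12.5, 14.8 and 9.5 in forestomach, below the filter level, where it was called below corpus (-1.47, adjusted p = 8.74e-04). It lay above that level on the corpus arrays (51.2, 50.7 and 51.1) and on junction array 3 (49) only. That call is therefore not independent of the filter, and the difference ran from -1.99 to -0.93 over the alternatives. Its junction call over forestomach (0.80, adjusted p = 0.027) was lost without forestomach array 1 (0.0614) or 3 (0.0847), or series 2 (0.103) or 3 (0.122). It was lost too with array 1 as the only forestomach array, and with quantile normalization (0.0561). The same held with trend and robust variances (0.0611) and with only the 6 arrays compared (0.0583).

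Bhlhe40, a repressor related to the Hes and Hey proteins and known from the circadian clock and hypoxia, was high at the junction. Its signals were 776.3, 1138.9 and 996.4 there, 501, 519.4 and 526.7 in forestomach, and 435.4, 544.3 and 631.5 in corpus, with the junction arrays above all 6 others. The junction was called above corpus (log2 0.84, adjusted p = 0.00782) and above forestomach (0.88, adjusted p = 0.00297). Tested against both at once it was not called (adjusted p = 0.135). The call over corpus was lost without series 2 (adjusted p = 0.104) or series 3 (adjusted p = 0.0582). In that test 0 of the 43 pathway genes were called in limma, and 4 had an unadjusted p under 0.05: Bhlhe40 above, and Dner, Dtx3 and Mib1 below.

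Of 8 genes for the enzymes that cut the receptor, subunits included, 5 were called lower in forestomach than in corpus, beside 29.9% of all genes. The 1 called higher, beside 30.0% of all genes, was Adam17 (0.64, adjusted p = 0.00115). With probe sets averaged, Adam17 was at 0.16 and not called (adjusted p = 0.194). Furin, the protease that cuts Notch on its way to the surface and processes many other proteins, averaged 1315 ± 222 at the junction, 321 ± 26.0 in forestomach and 2824 ± 229 in corpus. It was 8.58-fold below corpus in forestomach (log2 -3.10 ± 0.13, adjusted p = 2.77e-07), and at the junction 2.15-fold below corpus (-1.11, adjusted p = 5.77e-04) and 3.98-fold above forestomach (1.99, adjusted p = 9.25e-06). The gamma-secretase subunits Psen2 (log2 -1.48, adjusted p = 1.23e-05) and Ncstn (-1.39, adjusted p = 3.81e-05) were also called lower in forestomach. Both were called higher at the junction than in forestomach (1.09 for Psen2 and 1.12 for Ncstn). There 5 of the 8 genes were called higher and 0 lower (0 also at an unadjusted p under 0.05 in limma), beside 21.5% and 23.1% of all genes. With its probe sets averaged, Psen2 was at -0.57 in forestomach over corpus, and at 0.26 and not called in junction over forestomach (adjusted p = 0.119). Adam17, a sheddase that can cut Notch, was also called higher at the junction than in corpus (0.64, adjusted p = 0.00442), a call lost with probe sets averaged (adjusted p = 0.212), and without series 1 (0.0544) or series 2 (0.0647).

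Glandular and endocrine cells differ between the same zones. The 12 glandular genes summed to 121675 to 139468 at the junction, 1503 to 33039 in forestomach and 114477 to 163876 in corpus. Of these, 9 were called lower in forestomach than in corpus, beside 29.9% of all genes. Between junction and corpus 0 of 12 were called either way (0 at an unadjusted p under 0.05 in limma), beside 25.0% of all genes. Of 7 endocrine genes tested, 7 were called lower in forestomach than in corpus, beside 29.9% of all genes. At the junction 3 were called lower than in corpus, beside 11.8% of all genes. The part of these cells in the enzyme levels was not tested.

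Among the other receptors and ligands, Notch4, a receptor of endothelium, averaged 77.8 ± 14 at the junction, 38.7 ± 4.53 in forestomach and 152 ± 22 in corpus. It was called lower than in corpus in forestomach (log2 -1.73, adjusted p = 1.36e-05) and at the junction (-0.89, adjusted p = 0.00328, lost without series 3 at 0.0520), opposite to Notch1, Notch2 and Notch3. It was called higher at the junction than in forestomach (0.85, adjusted p = 0.00182), a call lost with array 1 as the only forestomach array. Of 10 endothelial genes 5 were called lower and 1 higher in forestomach than in corpus, beside 29.9% and 30.0% of all genes. The part of endothelium was not tested. The Delta-like relatives Dlk2 (1.76, adjusted p = 8.85e-05) and Dlk1 (0.73, adjusted p = 0.00599, lost without series 1 at 0.0508 or series 3 at 0.0722) were called higher in forestomach than in corpus. Dlk1 was also called lower at the junction than in forestomach (-1.02, adjusted p = 0.00161). Dlk2 was called higher at the junction than in corpus (1.03, adjusted p = 0.00721), which was lost without series 2 (0.0820) or series 3 (0.102).

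**Figure D4:**
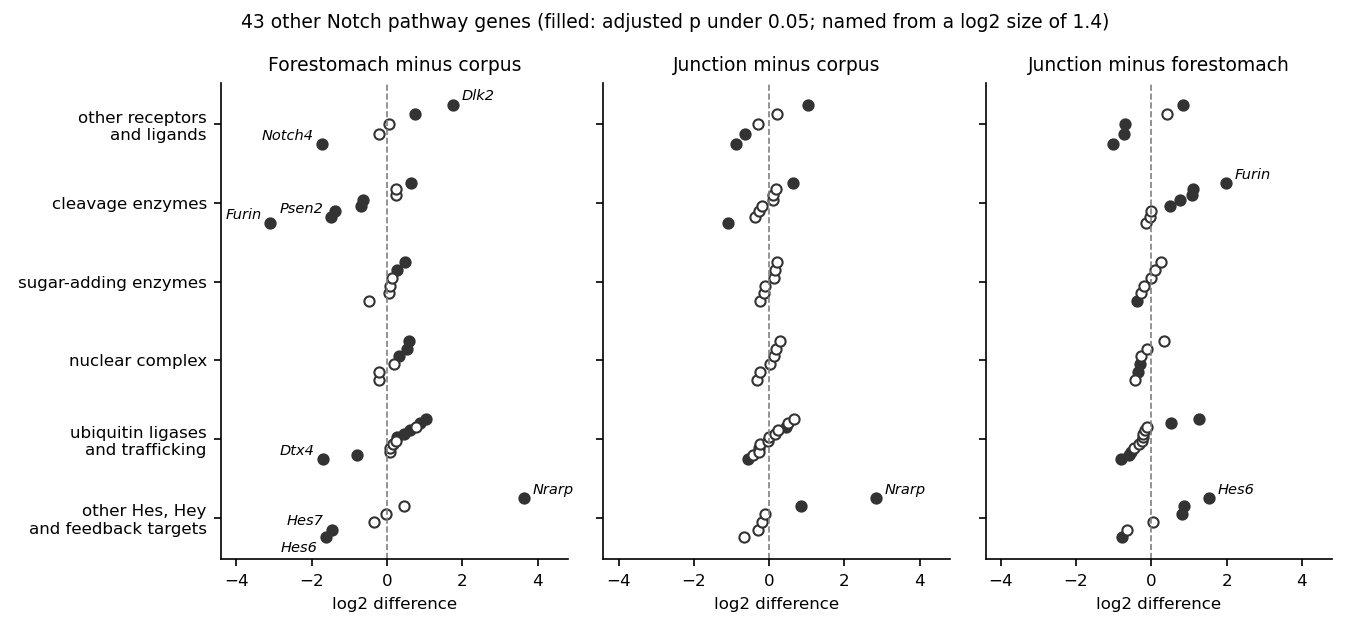
Log2 difference (horizontal axis) of the 43 other pathway genes, grouped by function down the page, in 1 panel for each pair of zones; filled points have an adjusted p under 0.05. Nrarp stands far right at 3.63 for forestomach over corpus and Furin far left at -3.10, and the groups hold points on both sides of 0.

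In the nuclear complex, Rbpj itself was called higher in forestomach than in corpus (log2 0.54, adjusted p = 0.00226), as was the coactivator Maml1 (0.57, adjusted p = 0.00227). In all, 3 of the 6 genes tested were called higher and 0 lower, beside 30.0% and 29.9% of all genes. At the junction 0 of the 6 were called against corpus in limma, with 1 higher and 1 lower at an unadjusted p under 0.05, where 25.0% of all genes were called. Of 6 sugar-adding enzymes, 2 were called higher in forestomach than in corpus, as were 30.0% of all genes, led by Poglut1, the O-glucosyltransferase (0.48, adjusted p = 0.00423). Of 12 ubiquitin ligases and trafficking genes, 5 were called higher and 2 lower in forestomach than in corpus, beside 30.0% and 29.9% of all genes. Numb, an inhibitor that sends Notch for degradation, was called higher there (1.03, adjusted p = 1.04e-05) and lower at the junction than in forestomach (-0.59, adjusted p = 6.38e-04). The Deltex relative Dtx4 was called lower in forestomach than in corpus (-1.71, adjusted p = 2.06e-05) and higher at the junction than in forestomach (1.28, adjusted p = 2.59e-04).

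Smaller differences in these groups turned on single arrays or settings. The sugar-adding enzyme Rfng was called in forestomach over corpus at 0.26 (adjusted p = 0.0413, and 0.0681 with the series as a block). Called at the junction below corpus were Mib1, the ligase that activates ligands (-0.26, adjusted p = 0.0479, and 0.0700 with the block), Dtx3 (-0.56, adjusted p = 0.0398, and 0.0662 with the block) and the neuronal ligand Dner (-0.65, adjusted p = 0.0250, and 0.120 without series 2). Across the leave-out fits, Rfng reached 0.310, Mib1 0.219 and Dtx3 0.194, each in the fit without 1 series. Also called in forestomach over corpus were the coactivator Snw1 (0.32, adjusted p = 0.0131) and Dtx2 (0.87, adjusted p = 0.0125), and at the junction below forestomach Dlk2 (-0.73), Dtx3 (-0.81), Rbpj (-0.36), Rfng (-0.37) and Snw1 (-0.29). Each of these lost its call without at least 1 series, with adjusted p up to 0.139 for Snw1 without series 1, 0.106 without series 2 and 0.150 without series 3 in the last comparison. A dimmer Snw1 probe set was called the opposite way, at -0.81 (adjusted p = 0.00529) and 0.70 (adjusted p = 0.0159) in these comparisons. The dimmest Snw1 probe set went with the brightest (1.06, adjusted p = 0.0164, and -0.92, adjusted p = 0.0411). With probe sets averaged, Snw1 was called in neither (0.19 and -0.17). The dimmer Dtx2 probe set was not called over corpus (0.14), nor the dimmer Dlk2 probe set below forestomach (0.01). Numb was called higher at the junction than in corpus (0.45, adjusted p = 0.00609), and that call was lost without series 1 (0.0534), 2 (0.0847) or 3 (0.0815).

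The closest expression patterns were found by the root mean square log2 difference between a gene and each member over the 9 arrays, after each was centred on its own mean (members and provisional gene symbols left out). Sdc1 lay nearest Notch1 at 0.102, Lrrc28 nearest Notch2 at 0.0855, Selenow nearest Notch3 at 0.0665, Stk26 nearest Jag1 at 0.0611, Gbp7 nearest Dll1 at 0.123 and Tpsb2 nearest Hes1 at 0.113. For Jag2 the nearest, H2-DMa, was further off, at 0.224. Arrdc4 was among the nearest 3 of both Notch1, at 0.106, and Jag1, at 0.0923. All genes tested lay at a median distance of 0.517 to 0.763. With 3 zones setting most of the variation, many genes lie close to any member, so these distances describe likeness over these arrays only.

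**Figure D5:**
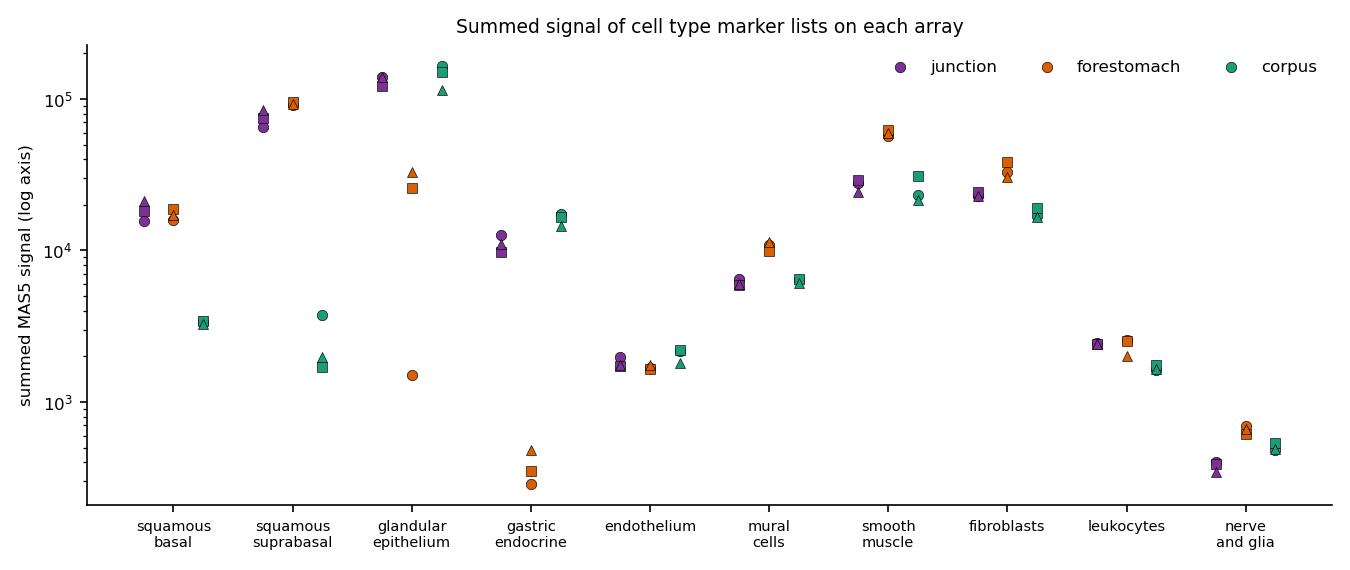
Summed array signal (vertical axis, log scale) of each cell type marker list on each of the 9 arrays, junction, forestomach and corpus from left to right within a list; circles, squares and triangles are series 1, 2 and 3. Mural cell sums are 5939 to 6481 at the junction and 6132 to 6435 in corpus, against 9976 to 11341 in forestomach, and glandular sums in forestomach run from 1503 to 33039.

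The squamous and stromal lists give the setting of the receptor and ligand levels. The 10 suprabasal keratinocyte genes summed to 64806 to 84171 at the junction, 90611 to 94969 in forestomach and 1696 to 3760 in corpus, where 3 of them lay below the filter level on every array. The 8 basal genes summed to 15601 to 21204 at the junction, 15876 to 18723 in forestomach and 3271 to 3423 in corpus, where 2 lay below it. The largest means in corpus were those of Itga6 (1800), Dst (959) and Itgb4 (335.5), against 57.2 for Krt14. In forestomach 5 of the 8 were called higher than in corpus and 1, Itga6, lower (-0.94), beside 30.0% and 29.9% of all genes. The 8 fibroblast genes summed to 22790 to 24216 at the junction, 30623 to 38245 in forestomach and 16642 to 19081 in corpus. The part of each cell type in the Notch gene levels was not tested.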

How the data were processed

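Total RNA of each pooled stripe was hybridised to an Affymetrix mouse array, 1 array for each of 9 pools. The deposited values are linear intensity signals on 45101 probe sets, made with MAS5 per the submitters' processing notes. The authors scaled every array to the same trimmed mean, 200.0, as the values show. No detection calls were used. Precision is set by there being 3 arrays per zone. Probe sets were named from the platform annotation of 2016, updated through a RefSeq gene table: 34958 had 1 symbol, 932 several and 9211 none, and 64 controls among them were then left out.

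Probe sets above their array's 40th percentile on at least 3 arrays were kept (29511). Log2(signal + 9.8), where 9.8 is the median over arrays of each array's 20th percentile, was fitted by zone over all 9 arrays (limma 3.58.1, R 4.3.3; 6 residual and 2.56 prior degrees of freedom). A gene at the junction was tested against both neighbours by the larger of the 2 p-values, with both differences of the same sign. The fit was tested on simulated data. Alternatives were the pseudocount, the filter, quantile and median scaling, averaged or separate probe sets, trend and robust variances, only the 6 arrays compared, the series as a block, and leaving out arrays or series.

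Series numbers pair the arrays because the 3 stripes of a series come from the same mice. Deviations from the zone mean correlated at -0.0287 to 0.123 within series (mean 0.0329, 9 pairs) and at a mean of -0.0165 across series (18 pairs).

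Members, pathway genes, marker lists and tests were chosen with earlier results of these data known. Other pathway genes were named by rule: up to 3 with the largest called difference per functional group and comparison. Pathway genes on the array but too dim to test were Dll3, Maml2, Hes2, Hes3, Hey2 and Bhlhe41. Other listed genes were not analysed here. Of 6 nerve and 6 leukocyte genes tested, 4 and 3 were called higher in forestomach than in corpus, beside 30.0% of all genes.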

Additional observations from a re-analysis of the deposited data

How the results depend on the processing

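Over the 8 genes and all comparisons, 756 values under alternatives were computed: 733 stayed on the same side of the threshold, 20 lost the call and 3 gained it. The 756 include the test against both neighbours, in which a gene whose 2 differences had opposite signs could not be called. All 20 losses and all 3 gains were between pairs of zones. Between pairs of zones 7 of 573 member values changed sign, for Hey1 and Dll1 at the junction over corpus and Jag1 and Jag2 at the junction over forestomach, all in differences not called in either setting. Of 1578 values of the other pathway genes named, 14 changed sign, and 1 of these was called as reported: Mib1 in forestomach over corpus, at -0.22 and not called with probe sets averaged (adjusted p = 0.0734), against 0.27 (adjusted p = 0.0169). With the series as a block, which uses the pairing, the 1 member call lost was Jag2 at the junction over corpus (adjusted p = 0.0512), 12 genes of all in place of 29 differed from both neighbours at the junction, and 3 other pathway genes were lower at the junction than in corpus. Members lower in forestomach than in corpus were 0, in place of 1, with median centring. With array 1 as the only forestomach array, the Hes1 difference from corpus was -0.25. Members called at the junction over corpus were 3, in place of 5, with probe sets averaged. Median centring moved all genes by 0.11 for forestomach over corpus, 0.10 for junction over corpus and -0.0059 for junction over forestomach.

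Each kept probe set tested alone gave 15592 calls for forestomach over corpus, 5625 for junction over corpus and 11024 for junction over forestomach, from more features tested (8168, 3406 and 6079 of the genes). Without forestomach arrays 2 and 3, junction against forestomach gave 3805 calls, 7 other pathway genes higher and 5 lower, and 6 other pathway genes were higher in forestomach than in corpus (8 with probe sets averaged, 14 as reported). Other pathway genes lower at the junction than in corpus were 5 as reported and 3 with no filter and by probe set. They were 2 with median centring and with only 6 arrays, and 8 with trend and robust variances. Genes beyond both neighbours were 13 with a pseudocount of 1, 75 with 30.9, 17 with no filter and 46 with probe sets averaged. They were 52 by probe set and 64 with trend and robust variances (1 other pathway gene, Bhlhe40, adjusted p = 0.0219). The cause was not tested.

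Leaving out 1 array or 1 series at a time, members called were 5 to 7 for forestomach over corpus (5 to 6 higher, 0 to 1 lower), 4 to 5 for junction over corpus and 4 to 6 for junction over forestomach (1 higher, 3 to 5 lower). All genes called were 6471 to 8138, 1221 to 3319 and 3946 to 5979 in those comparisons, and 0 to 22 beyond both neighbours. Other pathway genes were 7 to 14 higher and 10 to 11 lower, 1 to 6 higher and 2 to 6 lower, and 9 to 11 higher and 5 to 11 lower. Fits without a series have fewer degrees of freedom. Signals near the filter level, as for the second Notch2 and the third Jag1 probe sets, limit what can be read from those probe sets. The Jag1 probe set called in the opposite direction was above that level on 8 of 9 arrays, with 117.9, 84.3 and 55.9 in corpus. Hey1 fell below it on 1 corpus array, at 14.8.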
